A study of Mus musculus with 10 samples.

Results

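The 9 genes Dppa2, Dppa3, Dppa4, Dppa5a, Utf1, Lin28a, Lin28b, Sall4 and Trim71 were taken by symbol from a table of 36066 genes, and all 9 passed the filter that left 27259 genes for testing. They are transcribed in pluripotent stem cells, in primordial germ cells (PGCs, the embryonic founders of oocytes and sperm) or in both, and their levels were followed across 5 groups of mouse cells with 2 libraries each. The study asked how parthenogenetic embryonic stem cells (pESCs) and the PGC-like cells (PGCLCs) made from them compare with fertilized female ESCs, their PGCLCs and PGCs from embryos. All samples are labelled with the strain C57BL6. The ESC libraries come from a female ES cell line, and the pESC libraries from an ES cell line derived from activated oocytes, whose 2 genome copies are both maternal. ESC-PGCLCs and pESC-PGCLCs were made from those lines by 2 days of culture to epiblast-like cells (bFGF and activin A) and 4 days with 500 ng/ml BMP4, 1000 IU LIF, 100 ng/ml SCF and 50 ng/ml EGF, and cells positive for SSEA1 and CD61 were sorted. The PGC libraries hold sorted cells of female embryonic gonads, and their labels give no embryonic day. The labels do not say whether the libraries of a group came from separate cultures, sorts or embryos, so the p-values given here measure the spread between these libraries, which may be technical.

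The 9 genes act at different steps. DPPA2 and DPPA4 are DNA-binding partners that keep the promoters of a set of early embryonic and germ cell genes open to transcription, DPPA3 (also called Stella) binds UHRF1 and thereby limits maintenance of DNA methylation, and DPPA5A is a small RNA-binding protein of the KH family. UTF1 is a chromatin protein of stem cells, and SALL4 is a zinc finger transcription factor that binds the NuRD complex and is needed for the germline. LIN28A and LIN28B bind precursors of the microRNA let-7 and block their maturation, and TRIM71, a ubiquitin ligase and mRNA-binding repressor, is itself a classical let-7 target.

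The let-7 family is shown first, because 3 of the 9 genes belong to its regulatory loop. In the RefSeq set (GRCm38.p6), 9 mature mouse family members share the seed, bases 2 to 8, which is written here in capitals. Examples from 5′ to 3′ are let-7a (chr13:48538239-48538260, minus strand), let-7d (chr13:48536078-48536099, minus strand), let-7g (chr9:106178846-106178867, plus strand) and miR-98 (chrX:151913229-151913250, plus strand).
let-7a: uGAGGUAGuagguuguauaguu
let-7d: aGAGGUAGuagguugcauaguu
let-7g: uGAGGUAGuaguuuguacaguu
miR-98: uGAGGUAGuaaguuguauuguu

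A stretch of an mRNA that pairs with this seed reads CTACCTC, and it was searched on the transcript strand of the 3′ UTRs alone. The 4445-nt 3′ UTR of Lin28b held 4 matches, that of Trim71 (5512 nt) 4, that of Lin28a (2775 nt) 2 and that of Sall4 (1697 nt) 1. The 3′ UTRs of Dppa2, Dppa3, Dppa4, Dppa5a and Utf1 held 0. Of 16023 tested protein-coding genes, 9.44% held at least 1 match and 1.19% at least 2. Among the 1147 genes with a 3′ UTR of at least 4000 nt, these shares were 31.0% and 7.15%. Some of these sites are printed on the mRNA strand with the match in capitals, and each printed match is followed by an A. The other Lin28b matches are followed by T or C. All printed sites lie on the minus strand of GRCm38 and in the 3′ UTR: Lin28b at chr10:45381022-45381044, Lin28a at chr4:134005189-134005211, both Trim71 sites nearest the stop codon at chr9:114512472-114512494 and chr9:114512376-114512398, and Sall4 at chr2:168748940-168748962.
Lin28b: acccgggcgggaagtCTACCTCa
Lin28a: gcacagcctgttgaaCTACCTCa
Trim71, first site: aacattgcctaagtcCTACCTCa
Trim71, second site: agtgataatttctatCTACCTCa
Sall4: agggctttaatttatCTACCTCa
These matches are a description of the sequences and not measured binding sites. Mature microRNAs were not measured in these libraries, and the let-7 precursor rows of the table held at most 26 reads.

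The authors deposited TPM, in which reads on a gene are divided by its length and brought to one common total per library, so levels can be compared between genes. Reads recovered from the TPM gave depths of 6779837 (ESC-PGCLC replicate 2) to 18572902 (ESC replicate 2) reads on genes. Differences are given as log2 changes on the log2(TPM + 1) scale from limma, with standard error (SE) and p adjusted by the Benjamini-Hochberg method over the 27259 genes. Calls required an adjusted p below 0.05 together with at least a 2-fold change. This scale understates changes of genes near or under 1 TPM, which concerns Lin28a and Lin28b. Such genes also count in the shares of all genes called given below, which were larger with a filter at 1 TPM (17694 genes). With 2 libraries against 2, an exact permutation test of a single gene cannot go below p = 0.333, so no such test was used. Parts of some transcripts also occur, as exact 100-base stretches, in annotated transcripts of other genes, mostly processed copies. The shares of such stretches were 23.9% for Dppa2, 14.0% for Dppa4, 5.77% for Sall4, 3.5% for Lin28a, 3.08% for Dppa5a and 0.444% for Trim71. Levels of these genes are uncertain to at least that extent, while Dppa3, Utf1 and Lin28b shared 0 stretches. Copies outside the annotated transcripts, or with differing bases, were not searched.

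The groups were checked against markers of cell types. Summed over 8 stem cell markers, ESCs reached 844 to 1042 TPM and pESCs 639 to 762 TPM, against 136 to 222 TPM in PGCLCs and PGCs. The 6 late germ cell markers summed to 29.5 to 59.2 TPM in stem cells, 3733 to 3877 in ESC-PGCLCs, 2155 to 2309 in pESC-PGCLCs and 3052 to 3597 in PGCs. Dazl and Sycp3 made up most of the sums in PGCLCs and PGCs. In pESC-PGCLCs, Dazl, Sycp3 and Ddx4 were lower than in ESC-PGCLCs, Mael and Tdrd1 were higher, and Piwil2 overlapped. All 8 early germ cell markers had at least 1 TPM in PGCLCs and PGCs, and Fut4 and Itgb3, which relate to the sorted surface antigens SSEA1 and CD61, were among them. In ESCs and in pESCs 6 of the 8 reached 1 TPM as well. The 8 summed to 29.9 to 38.5 TPM in stem cells and 124 to 165 TPM in PGCLCs and PGCs. Pou5f1 (Oct4), which defines both stem cells and PGCs, had 23.5 and 19.0 TPM in ESCs, 7.8 and 7.49 in pESCs, 0.374 and 0.0 in ESC-PGCLCs, 2.98 and 2.88 in pESC-PGCLCs and 3.14 and 1.63 in PGCs. Sequence shared with other genes was not checked for Pou5f1. Its level was lowest in ESC-PGCLCs, the libraries with the fewest reads, where 3 reads on a gene of median length equal 0.2889 and 0.3376 TPM. Sox2, from the same list of stem cell markers, was highest there, with 97.3 and 110.5 TPM in ESC-PGCLCs, 32.7 and 44.6 in ESCs, 35.9 and 62.4 in pESCs, 23.9 and 29.7 in pESC-PGCLCs and 83.4 and 75.1 in PGCs.

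Markers of other cell types differed between the groups as well. The 8 blood markers, almost wholly embryonic and adult globins, summed to 0.0678 to 3.95 TPM in stem cells, 443 to 510.3 TPM in ESC-PGCLCs, 2262 to 2802 TPM in pESC-PGCLCs and 1730.3 to 1942 TPM in PGCs. The pan-leukocyte marker Ptprc was at 0 in both ESC-PGCLC libraries and at most 0.103 TPM elsewhere. The 8 gonadal somatic markers summed to 3.94 to 4.85, 17.6 to 20.4, 36.0 to 41.9 and 70.9 to 79.8 TPM in the same order, with Nr5a1 at 0 in the stem cells. Amhr2 made up most of the stem cell sum (3.57 to 4.71 TPM). It was lower in ESC-PGCLCs (1.26 and 2.33 TPM) and higher in pESC-PGCLCs (9.96 and 8.22) and PGCs (21.7 and 19.2). These sums move with the comparisons below, and their part in the results was not tested. In such bulk libraries, fewer cells of a type and less RNA per cell cannot be told apart.

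**Figure D1:**
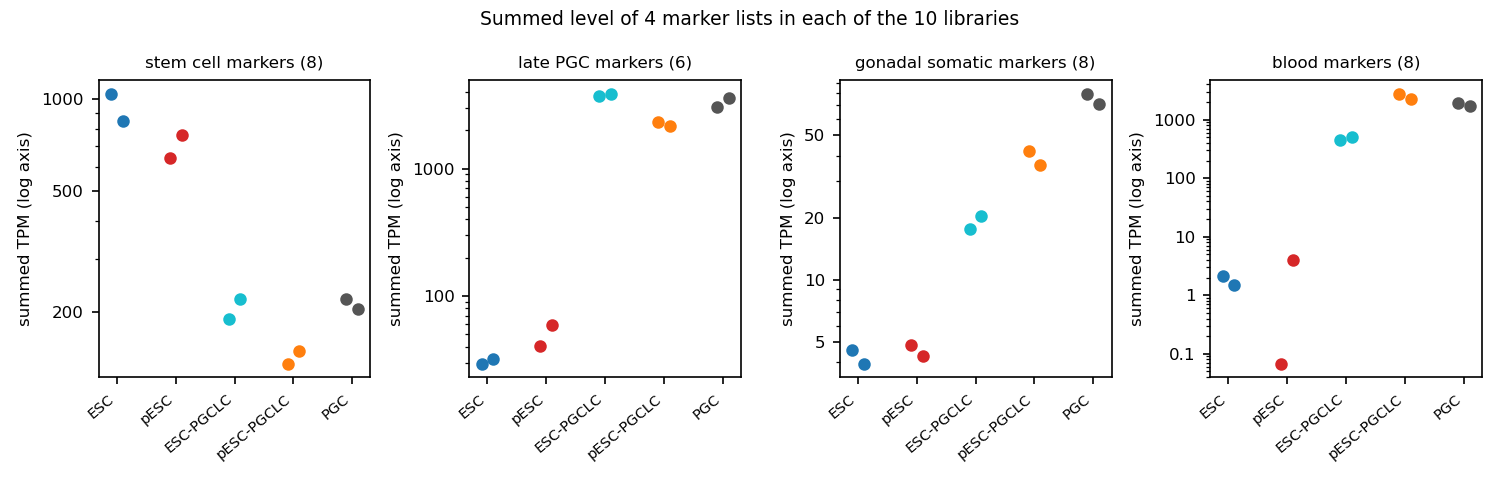
Summed TPM (log axis) of 4 marker lists in each library (points), by group. Stem cell markers were highest in ESCs and pESCs, late PGC markers reached at least 2155 TPM in PGCLCs and PGCs and at most 59.2 TPM in stem cells, and globin-dominated blood markers ranged from at most 3.95 TPM in stem cells to 2802 TPM in a pESC-PGCLC library.

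Across the 5 groups, some of the 9 genes were nearly level and others strongly graded. Lin28b spanned 19.9-fold between its highest and lowest group mean, Dppa3 15.4-fold, Lin28a 13.8-fold, Dppa5a 11.0-fold and Utf1 8.19-fold. Sall4 spanned 3.05-fold and Dppa4 2.35-fold, and the means of Dppa2 (1.72-fold) and Trim71 (1.64-fold) stayed within 2-fold. Dppa5a and Dppa3 were among the most abundant transcripts of some groups, whereas Lin28a stayed at or below 6.28 TPM in every library.

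**Figure D2:**
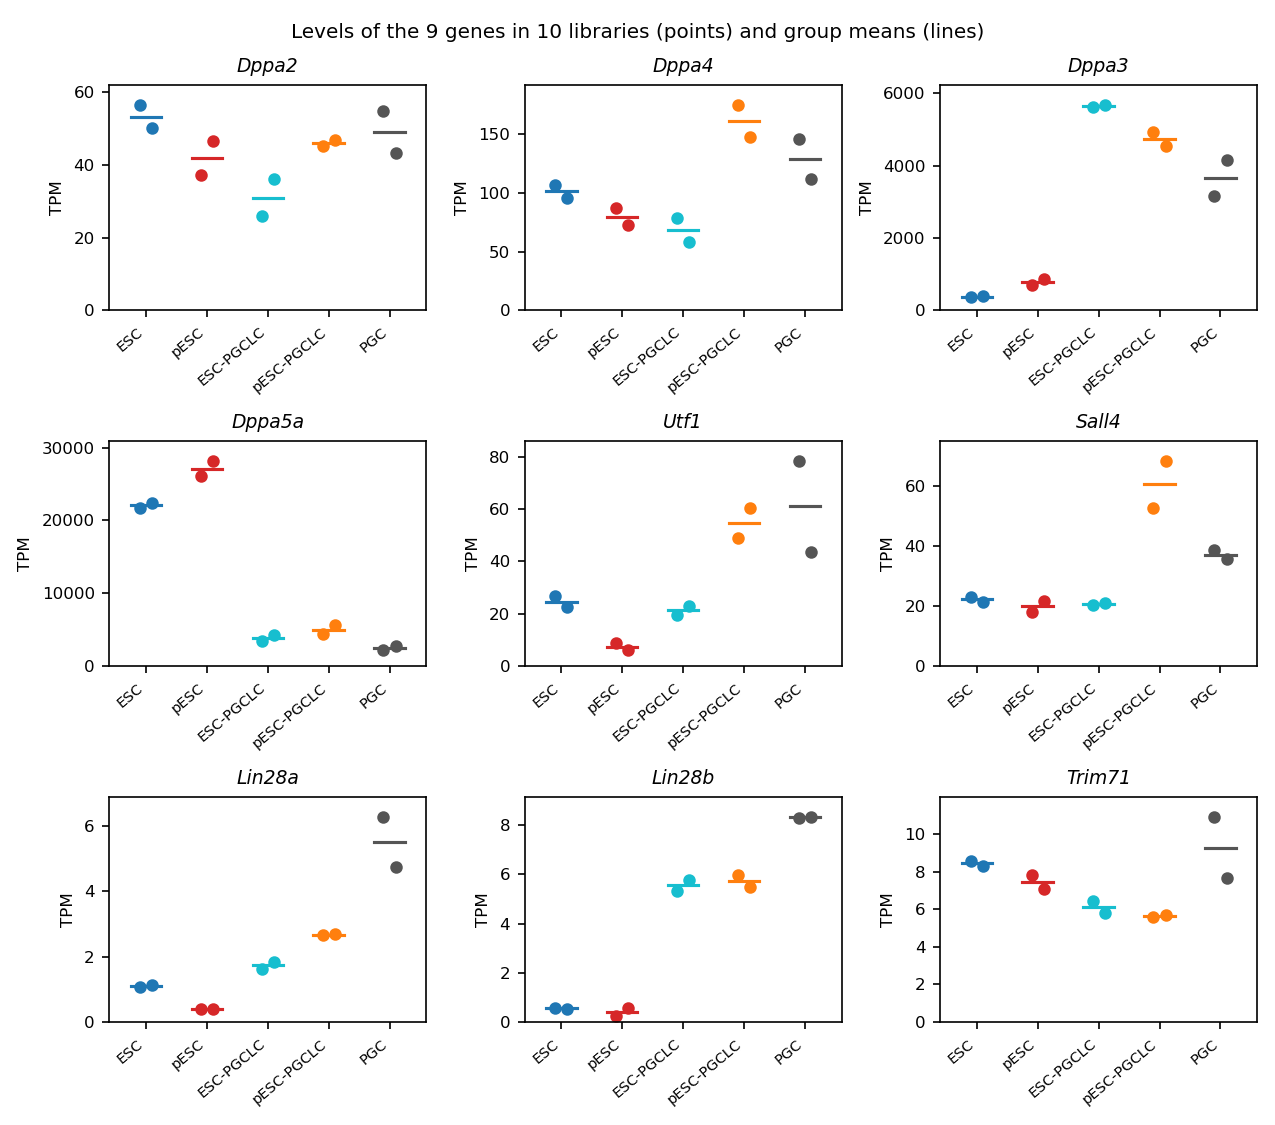
TPM of each of the 9 genes (1 panel per gene, axis from 0) in the 10 libraries (points), with the mean of the 2 libraries of each group (line). Dppa5a had at least 21668 TPM in stem cells and at most 5627 TPM in PGCLCs and PGCs, Dppa3 and Lin28b ran the other way, and Utf1, Dppa4 and Sall4 were higher in pESC-PGCLCs than in ESC-PGCLCs.

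Dppa2 and Dppa4 lie 9670 bp apart on chromosome 16, both on the plus strand (chr16:48303908-48319723 and chr16:48283733-48294237, GRCm38). Dppa2 had 56.5 and 50.1 TPM in ESCs, 37.2 and 46.6 in pESCs, 25.9 and 36.1 in ESC-PGCLCs, 45.3 and 46.8 in pESC-PGCLCs and 54.9 and 43.2 in PGCs. Its ranges overlapped between all neighbours in the order of means except the lowest, ESC-PGCLCs, which lay below the other 4 groups. Dppa4 had 107 and 95.8 TPM in ESCs, 86.9 and 72.7 in pESCs, 78.9 and 57.8 in ESC-PGCLCs, 175 and 148 in pESC-PGCLCs and 146 and 112 in PGCs. Both pESC-PGCLC libraries were above all others, and the ranges of pESCs and ESC-PGCLCs overlapped. In each library Dppa4 exceeded Dppa2, by 1.56-fold to 3.87-fold, and the 2 largest ratios, 3.87 and 3.16, were those of pESC-PGCLCs. The 2 genes did not move in step across the 10 libraries (Pearson r = 0.52 on the log2 scale, a description over libraries that share groups).

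Dppa2 was called in none of the 9 comparisons, and its log2 changes lay between -0.78 and 0.92. Its change of -0.78 ± 0.2 (SE) from ESCs to ESC-PGCLCs had an adjusted p of 0.0146 but was 1.72-fold. It reached -1.01 and a call without ESC-PGCLC replicate 2. Dppa4 was 1.24 ± 0.21 (SE) higher on the log2 scale in pESC-PGCLCs (161 ± 19.4 TPM, SD, n = 2) than in ESC-PGCLCs (68.4 ± 14.9 TPM, adjusted p = 0.00428).

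Among genes that need DPPA2 and DPPA4 for their transcription in other systems, 8 of the 9 in the table were tested. In ESC-PGCLCs against ESCs, 3 rose and 1 fell, with a median of -0.44 against 0.05 over all genes, of which 29.8% were called. That share, and 27.6% in the pESC line, is the background for each list counted on induction below. Mael, a piRNA pathway gene, rose by 5.59, Syce1 by 3.31 and Hormad1 by 2.84, the latter pair encoding proteins of meiotic chromosome axes and synapsis. In pESC-PGCLCs against pESCs, 3 rose and 2 fell. The neighbour of Dppa4 on its other side, Nectin3, a cell adhesion gene more than a megabase away, rose in both lines (2.44 and 2.31).

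Dppa3 (chr6:122626410-122630272, plus strand) lies between Gdf3, a TGF-beta family ligand 16322 bp away, and the pluripotency factor gene Nanog, 77216 bp away. Its level was 353 and 378 TPM in ESCs, 709 and 873 in pESCs, 5628 and 5681 in ESC-PGCLCs, 4938 and 4547 in pESC-PGCLCs and 3165 and 4168 in PGCs. No 2 groups that neighbour each other in this order of means overlapped. Dppa3 made up 0.0353% to 0.0873% of all TPM in stem cells and 0.317% to 0.568% in PGCLCs and PGCs. Both of its neighbours ran the opposite way. Gdf3 had 267 ± 7.73 TPM in ESCs and 6.92 ± 0.827 TPM in ESC-PGCLCs (n = 2 each), and Nanog 572 ± 144 TPM and 29.6 ± 7.61 TPM. Their log2 changes were -5.08 and -4.23 in the ESC line and -2.91 and -3.64 in the pESC line, and all 4 were called.

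Of 5 genes that act with DPPA3 on DNA methylation (Uhrf1, Dnmt1 and Tet1 to Tet3), 1 rose and 1 fell in ESC-PGCLCs against ESCs. Uhrf1, which brings the maintenance methyltransferase to replicated DNA, fell by 2.21, whereas Dnmt1, which encodes that enzyme, rose by 1.16. In the pESC line the same pair was called, with -1.7 for Uhrf1 and 1.98 for Dnmt1. A pseudogene row, Dppa3-ps, had at most 16.9 TPM and shared 0 of its 100-base stretches with Dppa3.

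Dppa5a (chr9:78367052-78368177, minus strand) was the most abundant of the 9 genes in the stem cells, with 21668 and 22428 TPM in ESCs and 26041 and 28150.2 TPM in pESCs. Its rank among all genes was 2 to 5 there and took 2.17% to 2.82% of all TPM. ESC-PGCLCs had 3429 and 4239 TPM, pESC-PGCLCs 4376 and 5627 and PGCs 2207 and 2708. The groups did not overlap, and PGCs were lowest. Reads of its near-identical copies Dppa5b and Dppa5c cannot be assigned with certainty, since 100% of their stretches are shared, yet Dppa5a held 95.1% to 99.5% of the summed TPM of the 3 rows in each library.

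Since TPM of a library add up to a fixed total, the share of Dppa5a enters the level of all other genes. TPM were therefore also rescaled after leaving out Dppa3, Dppa5a, Dppa5b and Dppa5c, a check added after seeing the data. All induction calls among the 9 genes were kept except that of Dppa4 in the pESC line, whose log2 change became 0.98. The 3 Dppa5 rows held at most 2.96% of all TPM and Dppa3 at most 0.568%. This rescaling could thus move log2 changes only slightly, and it does not stand in for the median centring given below. In both lines 2 genes of the KH family fell with Dppa5a. Ooep, a gene of the oocyte subcortical complex 7931 bp from Dppa5a, changed by -2.04 in the ESC line and -2.52 in the pESC line, and Khdc3, which belongs to the same complex, by -3.35 and -2.86. Over 6 family genes tested, 2 rose and 2 fell in each line. Khdc1a rose by 2.95 in the ESC line and by 1.35 in the pESC line, a difference of -1.61 ± 0.27 (SE, adjusted p = 0.00505).

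Utf1 (chr7:139943789-139945112, plus strand) had 26.7 and 22.6 TPM in ESCs, 8.81 and 6.11 in pESCs, 19.7 and 22.8 in ESC-PGCLCs, 49.0 and 60.4 in pESC-PGCLCs and 78.4 and 43.8 in PGCs. The pESC libraries lay below all others. ESCs overlapped with ESC-PGCLCs and pESC-PGCLCs with PGCs, and the PGC libraries differed most from each other (61.1 ± 24.5 TPM, SD, n = 2). Of 7 genes linked to UTF1 (Cdkn2a, the mRNA decapping genes Dcp1a, Dcp1b and Dcp2, and the Polycomb genes Ezh2, Suz12 and Eed), Suz12 rose by 1.01 and Eed fell by 1.68 in ESC-PGCLCs against ESCs. In the pESC line 1 of the 7, Ezh2, rose by 1.11.

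Sall4 (chr2:168748332-168767943, minus strand) had 23.1 and 21.5 TPM in ESCs, 18.0 and 21.7 in pESCs, 20.5 and 20.9 in ESC-PGCLCs, 52.7 and 68.4 in pESC-PGCLCs and 38.6 and 35.7 in PGCs. The first 3 groups lay within 18.0 to 23.1 TPM, the PGCs stood above them, and pESC-PGCLCs above the PGCs. Of 14 Sall paralogues and NuRD subunits, 2 rose and 2 fell in the ESC line and 6 rose and 1 fell in the pESC line. Over all genes these comparisons called 29.8% and 27.6%, and the count in the ESC line was near that share. The histone deacetylase gene Hdac1 fell by 3.91 and 2.61, Mta1 rose by 2.26 in the ESC line and Hdac2 by 1.72 in the pESC line. The change differed between the lines for 5 of the 14, all higher in the pESC line, with 2.06 for Mta3, 2.01 for Mbd3 and 1.77 for Rbbp7. Over all genes, 15.5% were called in that direction. Of the neighbours of Sall4, Atp9a was higher in pESC-PGCLCs than in ESC-PGCLCs by 1.38 and Zfp64 lower by 1.56.

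Lin28a (chr4:134003330-134018841, minus strand) and Lin28b (chr10:45376620-45486395, minus strand) were both low. Lin28a had 1.09 and 1.14 TPM in ESCs, 0.399 and 0.404 in pESCs (14 reads in each library), 1.63 and 1.84 in ESC-PGCLCs, 2.67 and 2.69 in pESC-PGCLCs and 6.28 and 4.76 in PGCs. No neighbouring groups overlapped, and the order rose from pESCs to PGCs. Lin28b had 0.587 and 0.538 TPM in ESCs, 0.264 and 0.573 in pESCs (21 and 45 reads), 5.33 and 5.77 in ESC-PGCLCs, 5.95 and 5.5 in pESC-PGCLCs and 8.3 and 8.32 in PGCs. The 2 stem cell groups overlapped, as did both kinds of PGCLC, and PGCs were above every PGCLC library. The TPM ratio of Lin28b to Lin28a was 0.473 to 1.42 in stem cells and 1.32 to 3.27 in PGCLCs and PGCs.

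Trim71 (chr9:114507133-114564369, minus strand) stayed within a narrow band, with 8.58 and 8.29 TPM in ESCs, 7.83 and 7.05 in pESCs, 6.42 and 5.82 in ESC-PGCLCs, 5.57 and 5.68 in pESC-PGCLCs and 10.9 and 7.64 in PGCs. Both PGCLC kinds lay below the stem cells and the PGCs. It was called in none of the 9 comparisons on this scale. Of 6 mRNAs that TRIM71 is known to repress, Cdkn1a, which encodes the cell cycle inhibitor p21, fell in both lines, with -4.34 in the ESC line and -2.41 in the pESC line. The early response gene Egr1 rose by 2.47 and 2.97, and Rbl2, a retinoblastoma family gene, by 1.26 and 1.05.

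Genes around the let-7 loop were followed from 2 lists. Of 11 genes for the processing or tailing of let-7 precursors, 3 rose in the ESC line and 6 in the pESC line, and 0 fell. Over all genes, 29.8% were called in the ESC line and 27.6% in the pESC line, so that the count in the ESC line was near the share of all genes. Tut4, whose enzyme adds uridines to precursors bound by LIN28A, rose by 2.3 and 1.37, and Dgcr8, a subunit of the nuclear processing complex, by 1.48 and 2.22. The median change of the list was 0.24 in the ESC line and 1.04 in the pESC line, against 0.05 and 0.22 over all genes. With a filter at 1 TPM the medians over all genes were 0.12 and 0.58. Median centring shifted the median of all genes by 0.01 and -0.73. This list and the others were counted on the deposited scale alone. Of 16 known let-7 targets, 5 rose and 4 fell in the ESC line and 6 rose and 2 fell in the pESC line, where 29.8% and 27.6% of all genes were called in either direction. The nuclear receptor gene Nr6a1 rose by 3.49 and 2.75 and Prdm1, a germ cell specification factor that is also on the list of early germ cell markers, by 2.04 in the ESC line, where Cdk6 fell by 2.56.

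Induction of PGCLCs was compared with the parent line in each case. In ESC-PGCLCs against ESCs, 29.8% of all tested genes were called (4161 higher and 3961 lower), and so were 3 of the 9. Dppa3 rose by 3.95 ± 0.19 (SE, adjusted p = 4.1e-06), which is 15.4-fold, and Lin28b by 2.07 ± 0.17 (adjusted p = 4.04e-05). The TPM of Lin28b was 9.87 times that in ESCs. Dppa5a fell by 2.53 ± 0.21 (adjusted p = 4.69e-05), or 5.78-fold. Dppa4 (-0.58), Utf1 (-0.2), Sall4 (-0.11), Lin28a (0.37) and Trim71 (-0.41) had adjusted p-values of 0.0513 to 0.646.

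In pESC-PGCLCs against pESCs, the test called 27.6% of all genes (5681 higher and 1854 lower), and 7 of the 9. Of the 7, 6 were higher, where 20.8% of all genes were called higher. With a filter at 1 TPM, which all 9 genes pass, 7595 of 17694 genes were called (5721 higher), and again 7 of the 9. Utf1 rose by 2.73 ± 0.29 (SE, adjusted p = 0.00018), Dppa3 by 2.59 ± 0.19 (adjusted p = 3.51e-05) and Lin28b by 2.25 ± 0.17 (adjusted p = 4.17e-05). Sall4 rose by 1.56 ± 0.16 (adjusted p = 0.000184), Lin28a by 1.39 ± 0.17 (adjusted p = 0.000429) and Dppa4 by 1.01 ± 0.21 (adjusted p = 0.005). Dppa5a fell by 2.45 ± 0.21 (adjusted p = 7.84e-05). Dppa2 (0.14) and Trim71 (-0.35) did not pass the test.

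The size of the change was then compared between the lines, with the change in the ESC line subtracted from that in the pESC line. This difference was called for 5 of the 9 genes and for 19.1% of all genes (4236 higher and 961 lower). With a filter at 1 TPM it was called for 5494 of 17694 genes (4461 higher). Utf1 differed by 2.93 ± 0.41 (SE, adjusted p = 0.00203), Sall4 by 1.66 ± 0.23 (adjusted p = 0.00211) and Dppa4 by 1.59 ± 0.29 (adjusted p = 0.00698). Lin28a differed by 1.02 ± 0.25 (adjusted p = 0.0219), and Dppa3, which rose in both lines, by -1.36 ± 0.26 (adjusted p = 0.00863). For Dppa5a (0.08 ± 0.3), Lin28b (0.18 ± 0.24) and Trim71 (0.06 ± 0.25) the difference was within its SE, and that of Dppa2 was 0.92 ± 0.29 (adjusted p = 0.055). Without either library of ESCs or pESC-PGCLCs, or without ESC-PGCLC replicate 1, the difference of Lin28a was not called (0.96 to 1.04, adjusted p 0.0588 to 0.0695). That of Dppa3 was not called without ESC replicate 1 (-1.31, adjusted p = 0.0501), and that of Dppa2 was called without pESC replicate 2 (1.08) or ESC-PGCLC replicate 2 (1.15). Only the calls of Utf1 and Dppa3 held with centring of each library on its median gene, and only that of Utf1 with quantile normalization, where Sall4 was at 1.0, Dppa4 at 0.99 and Dppa3 at -0.97. The globin sums given above moved with this difference, from at most 3.95 TPM in both stem cell groups to 443 to 510.3 TPM in ESC-PGCLCs and 2262 to 2802 TPM in pESC-PGCLCs, and their part in it was not tested.

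**Figure D3:**
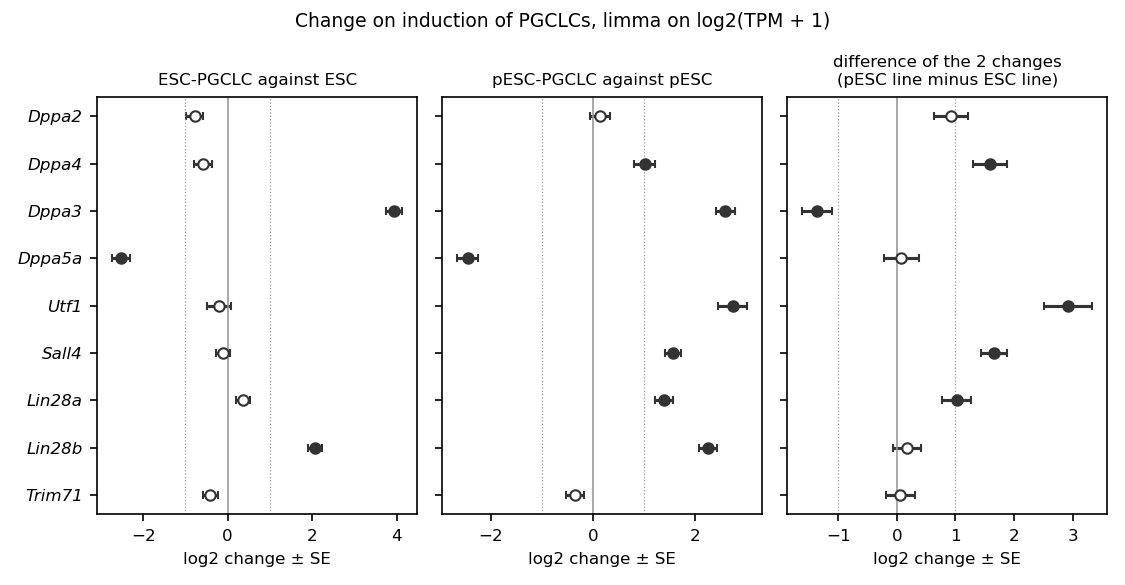
Log2 change with SE (bars) of the 9 genes on induction in the ESC line, in the pESC line, and the difference between both (dotted lines at 2-fold, filled points called). Dppa3, Lin28b and Dppa5a were called in both lines, whereas Utf1, Sall4, Dppa4 and Lin28a were called in the pESC line and in the difference; with median centring the calls of Dppa4, Sall4 and Lin28a in the last 2 panels were lost.

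In pESCs against ESCs, the test called 0.781% of all genes (45 higher and 168 lower), and 2 of the 9. Dppa3 was higher in pESCs by 1.1 ± 0.19 (SE, adjusted p = 0.0435), with 791 ± 116 TPM against 366 ± 18 TPM (SD, n = 2 each). Utf1 was lower by 1.61 ± 0.29 (adjusted p = 0.0484), with 7.46 ± 1.91 TPM against 24.6 ± 2.94 TPM. Both adjusted p-values lie close to the threshold, and of 19 alternatives 7 kept the call of Dppa3 and 5 that of Utf1. It was lost without either library of ESCs, pESCs, ESC-PGCLCs or pESC-PGCLCs, with adjusted p between 0.0492 and 0.315 for Dppa3, which fell to 0.95 without pESC replicate 2, and between 0.0594 and 0.331 for Utf1. Lin28a differed by -0.59 on the log2(TPM + 1) scale (adjusted p = 0.124), although its TPM in ESCs was 2.77 times that in pESCs. Among the genes of the lists, Tarbp2, a partner of Dicer, was lower in pESCs by 1.01 (adjusted p = 0.0382).

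In pESC-PGCLCs against ESC-PGCLCs, the test called 13.4% of all genes (2812 higher and 839 lower), and 3 of the 9. These 3 were all higher, where 10.3% of all genes were called higher. With a filter at 1 TPM, 3776 of 17694 genes were called (2895 higher). Sall4 was higher by 1.49 ± 0.16 (SE, adjusted p = 0.000696), with 60.6 ± 11.1 TPM against 20.7 ± 0.249 TPM (SD, n = 2 each), and this call held in each of 19 alternatives. Utf1 was higher by 1.32 ± 0.29 (adjusted p = 0.0134), with 54.7 ± 8.04 TPM against 21.3 ± 2.21 TPM, and Dppa4 by 1.24, as given above. With median centring Utf1 was at 0.91 and Dppa4 at 0.83, and with quantile normalization at 0.94 and 0.88, so that neither was called. With the compared groups alone Dppa4 had an adjusted p of 0.0505. The call of Utf1 was also lost without either ESC-PGCLC library and without pESC-PGCLC replicate 2 (adjusted p 0.0526 to 0.0934). Dppa3 (-0.25), Dppa5a (0.38), Lin28b (0.04) and Trim71 (-0.1) did not differ beyond the threshold, and the first 3 change sign under another scaling. The blood and gonadal somatic sums were higher in pESC-PGCLCs as well, by the values given with the markers, and their part in these differences was not tested.

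PGCs were set against both kinds of PGCLC, comparisons that share the PGC libraries. Against ESC-PGCLCs, the test called 13.8% of all genes (3260 higher and 512 lower), and 2 of the 9, both higher in PGCs, where 12.0% of all genes were called higher. Utf1 was higher by 1.42 ± 0.29 (SE, adjusted p = 0.00909) and Lin28a by 1.24 ± 0.17 (adjusted p = 0.0028). Both calls were lost with median centring (0.82 and 0.64), with quantile normalization (1.08 and 0.64) and with the compared groups alone (adjusted p = 0.107 and 0.0694), and that of Utf1 also without ESC-PGCLC replicate 1 (adjusted p = 0.0538). With the compared groups alone, 0 of all genes were called in this comparison. With median centring the 2 called genes were instead Dppa3 (-1.24) and Dppa5a (-1.25), both lower in PGCs. Dppa4 was called without PGC replicate 2 (1.1) and without ESC-PGCLC replicate 1 (1.13). Dppa4 (0.91), Sall4 (0.81), Dppa2 (0.65) and Dppa3 (-0.64) had adjusted p-values of 0.00916 to 0.0433 with changes under 2-fold on the deposited scale. Against pESC-PGCLCs, it called 3.67% of all genes (564 higher and 436 lower), and 1 of the 9, Dppa5a, which was lower in PGCs by 1.02 ± 0.21 (adjusted p = 0.0345). Lin28a (0.82, adjusted p = 0.0356) and Sall4 (-0.68, adjusted p = 0.0456) differed by less than 2-fold on the log2(TPM + 1) scale. The TPM of Lin28a in PGCs was 2.06 times that in pESC-PGCLCs. Utf1 (0.11) and Dppa2 (0.08) were close to 0. The call of Dppa5a held in 10 of 19 alternatives and was lost without either library of ESCs, ESC-PGCLCs or pESC-PGCLCs and without PGC replicate 1, with log2 changes of -0.84 to -1.2 and adjusted p of 0.0528 to 0.167. Without PGC replicate 1 Utf1 was at -0.31. Gonadal somatic markers were highest in PGCs (70.9 to 79.8 TPM), and their part in these differences was not tested.

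**Figure D4:**
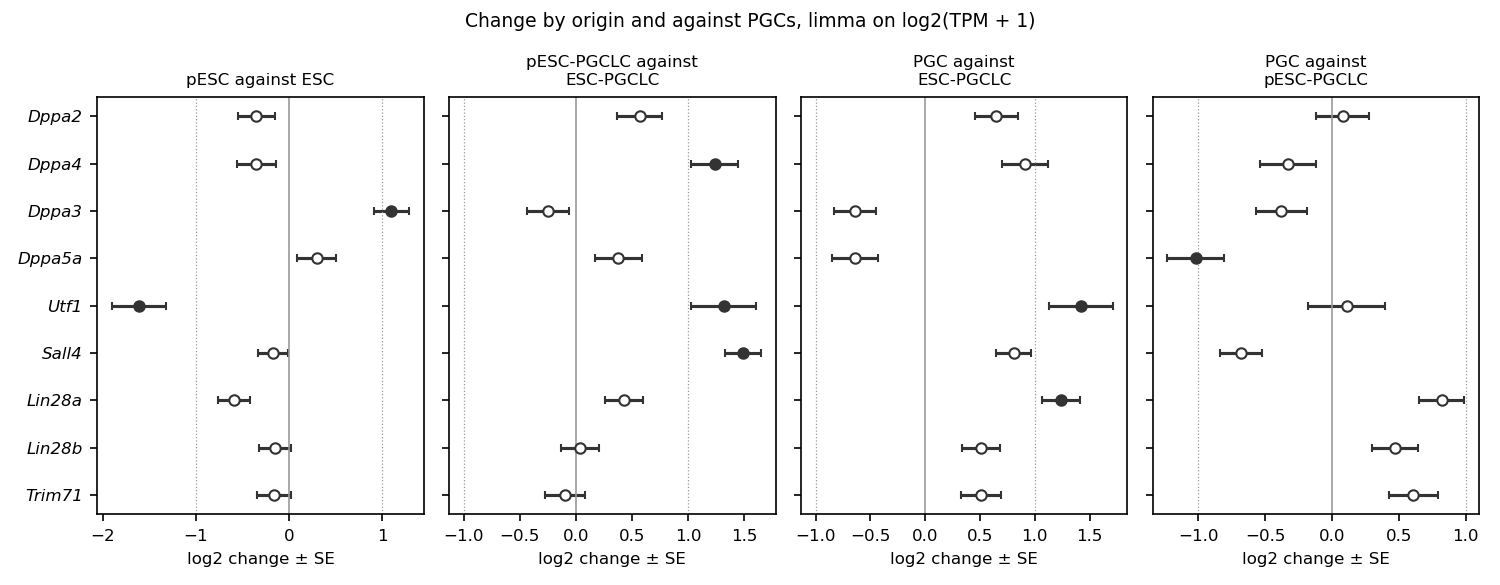
Log2 change with SE (bars) of the 9 genes between the stem cell lines, between the PGCLC kinds and between PGCs and each PGCLC kind (dotted lines at 2-fold, filled points called). Utf1 was called in 3 of the 4 panels, lower in pESCs than in ESCs and higher in pESC-PGCLCs and PGCs than in ESC-PGCLCs; with median centring all 3 calls were lost.

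Against stem cells, 32.5% of all genes were called in PGCs against ESCs (6372 higher and 2500 lower) and 34.1% in PGCs against pESCs (7320 higher and 1987 lower), and 5 of the 9 in each. Dppa3 was higher in PGCs by 3.31 against ESCs and by 2.21 against pESCs, and Lin28b by 2.57 and 2.72. Lin28a was higher by 1.62 and 2.21, and Utf1 by 1.22 and 2.84. Dppa5a was lower by 3.17 and 3.47. The 10 changes had SE of 0.17 to 0.29, and the largest adjusted p was 0.00794, for Utf1 against ESCs. That call was lost without PGC replicate 1 (0.81) and without ESC replicate 2 (1.11, adjusted p = 0.0599), with median centring (0.63) and with the compared groups alone (adjusted p = 0.0653), and that of Lin28a against ESCs with quantile normalization (0.9). Sall4 was called against pESCs without pESC replicate 2 (1.01). Sall4 (0.71 and 0.88) and Dppa4 (0.33 and 0.68) were higher by less than 2-fold and Trim71 differed by 0.1 and 0.26, and with median centring Dppa4 was at -0.26 and -0.25, Sall4 at -0.05 against pESCs and Trim71 at -0.49 and -0.66. Of the lists in PGCs against ESCs, 5 of 11 let-7 processing genes rose and 0 fell. Of 16 let-7 targets 8 rose and 1 fell, and of 14 Sall and NuRD genes 7 rose and 1 fell. Over all genes 32.5% were called, and with a filter at 1 TPM 8873 of 17694 (6369 higher). The lists were counted on the deposited scale alone and not with median centring.

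Several of these values depend on how the libraries are scaled. Median centring, which used the 9024 genes that reached 1 TPM in all libraries, shifted the median of all genes by 0.34 in pESCs against ESCs, by -0.41 in pESC-PGCLCs against ESC-PGCLCs, by -0.73 in pESC-PGCLCs against pESCs and by -0.75 in the difference between lines. It shifted PGCs by -0.61 against ESC-PGCLCs, -0.2 against pESC-PGCLCs, -0.59 against ESCs and -0.92 against pESCs, and ESC-PGCLCs against ESCs by 0.01. The split of all called genes turned with it, to 161 higher and 30 lower in pESCs against ESCs, 1460 and 1891 between the PGCLC kinds, 2280 and 5010 in the pESC line and 1727 and 4062 for the difference. For PGCs it became 712 and 2003 against ESC-PGCLCs, 293 and 821 against pESC-PGCLCs, 3447 and 4736 against ESCs and 2836 and 6857 against pESCs. Quantile normalization gave 65 and 57, 1723 and 1330, 3293 and 3033, and 2228 and 1643 for the first 4 of these, and 927 and 979, 297 and 593, 3747 and 3647, and 3845 and 3511 for the PGC comparisons.

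With median centring 5 of the 9 genes were called in pESC-PGCLCs against pESCs. Dppa3 (1.86), Utf1 (2.0), Lin28b (1.52) and Dppa5a (-3.18) were kept and Trim71 was added at -1.08, while Dppa4 was at 0.28, Lin28a at 0.66 and Sall4 at 0.82. The voom fit on recovered reads kept 6 of the 7, with Dppa4 at 0.73. Dppa4 was also under 2-fold with quantile normalization (0.76), where Trim71 was called at -1.01, without pESC replicate 2 (0.88) and without pESC-PGCLC replicate 1 (0.89). The calls of Dppa3, Dppa5a and Lin28b on induction held in both lines in each of 19 alternatives, and so did that of Utf1 in the pESC line.

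**Figure D5:**
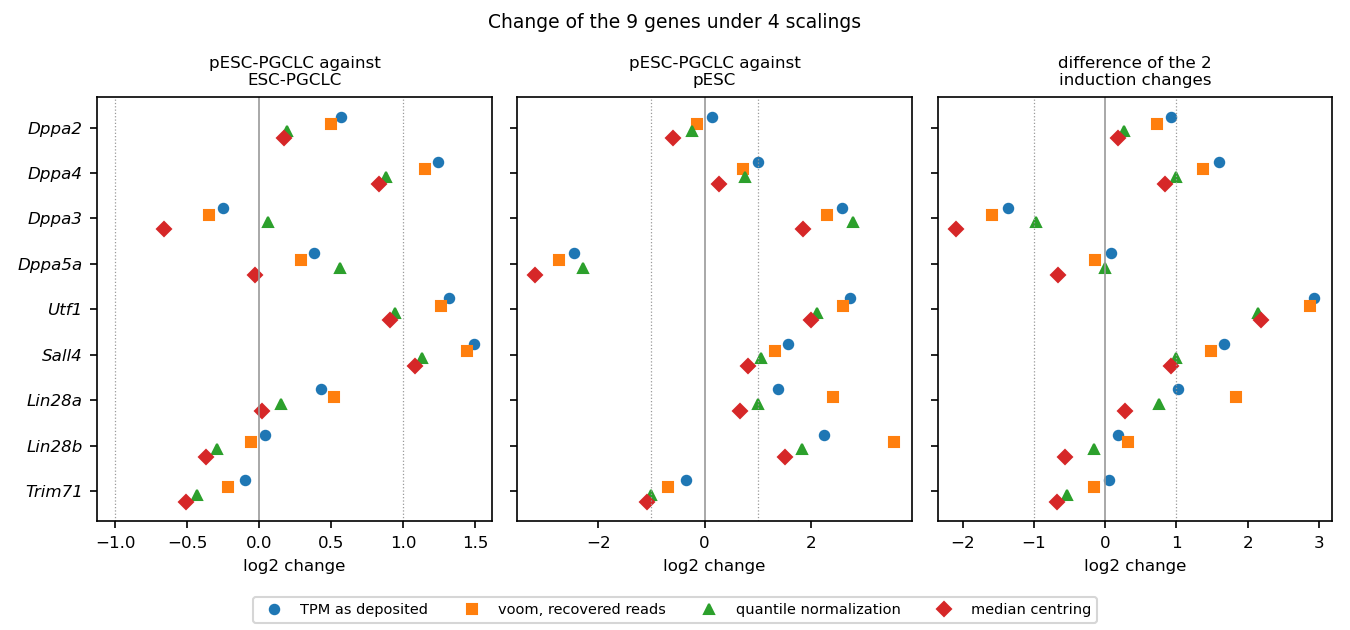
Log2 change of the 9 genes in 3 comparisons under 4 scalings (TPM as deposited, voom on recovered reads, quantile normalization, median centring; dotted lines at 2-fold). Median centring moved the values to the left; Utf1 stayed at or above 2.0 in the pESC line, Dppa4 dropped to 0.28 there, and Dppa2, Dppa3, Dppa5a, Lin28b and Trim71 changed sign in at least 1 panel.

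Likeness across the 10 libraries was read as Pearson r of log2(TPM + 1), over 11186 genes with at least 5 TPM in their highest group, and is given as a description of libraries that share groups and scaling. Dppa3 was most like Gm9112 and Hormad1 (r = 0.995 each), and Hormad1 had 50.3 TPM in ESCs and 367 in ESC-PGCLCs. Dppa5a was most like Zfp978 (0.995) and the ribosomal protein gene Rpl34 (0.994), which had 621 TPM in ESCs and 49.6 in PGCs. Lin28b was most like Eps15 and Rundc3b (0.998 each), and Lin28a most like Oraov1 (0.994) and Kif2c (0.993). Utf1 was nearest to Nup93 (0.975), Sall4 to Gm28535 (0.985) and the kinetochore gene Cenps (0.981), and Dppa4 to the mitochondrial genes Fis1 (0.981) and Mrpl54 (0.972). Dppa2 was nearest to Gfm1 (0.977) and Hacd2 (0.971), and Trim71 to Mcam (0.966) and Lmnb2 (0.931). Among the 9 genes, Dppa5a and Lin28b ran opposite (r = -0.99), and Dppa3 and Lin28b (0.92), Utf1 and Lin28a (0.91) and Dppa4 and Sall4 (0.84) ran together. The gene next to Lin28b, Hace1, rose with it, by 2.09 in the ESC line and 1.96 in the pESC line.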

How the data were processed

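The 10 RNA-seq libraries were grouped by their labels into 5 groups of 2. For the deposited TPM of 36066 genes the authors used HISAT2 (genome build mm10) and featureCounts. The submitters' processing notes also name Bowtie2, RSEM, DESeq2 and R 3.4.2. TPM multiplied by exon length and a factor per library gave whole reads (tolerance 0.05) for 95.1% to 95.4% of values above 0. The recovered reads gave depth and a voom alternative. For Dppa2 and Dppa4 the exon lengths behind the TPM (1948 and 1534 nt) are shorter than in GENCODE M21 (2447 and 1662 nt).

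In R 4.3.3, limma 3.58.1 was fitted to log2(TPM + 1) with 1 mean per group over all 10 libraries (5 residual and 2.81 prior degrees of freedom, trended variances), for the 27259 genes that reached 0.1 TPM in 2 or more libraries. Calls needed a Benjamini-Hochberg adjusted p under 0.05 and 2-fold; p-values are two-sided. The procedure was tested on simulated data. The 9 genes, the gene lists and the marker lists were chosen with earlier results of these data known. Of a list, at most the 3 called genes with the largest change are named, and neighbours are the nearest protein-coding genes. Sequences and the let-7 set are from RefSeq and the GRCm38 annotation, and 35859 symbols matched it. Alternatives were no filter, a filter at 1 TPM, 0.1 as pseudocount, the compared groups alone, quantile normalization, median centring, a replicate block, voom, no fold minimum and leaving out each library. The rescaling without Dppa3 and the Dppa5 genes was added after seeing the data. Python 3.11.15 with numpy 2.4.6, pandas 2.3.3 and matplotlib 3.10.9 served for tables and plots.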

Additional observations from a re-analysis of the deposited data

Results flagged for a closer look

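Of the 9 genes, 5 changed on induction by an amount that differed between the pESC line and the ESC line, by limma's test of the difference itself. Over all genes the same test called 19.1%, 4236 of them higher in the pESC line and 961 lower. With a filter at 1 TPM it called 5494 of 17694 genes. On the log2 scale, with the change in the ESC line subtracted from that in the pESC line, the difference was 2.93 for Utf1, 1.66 for Sall4, 1.59 for Dppa4, 1.02 for Lin28a and -1.36 for Dppa3, with adjusted p-values of 0.00203, 0.00211, 0.00698, 0.0219 and 0.00863. Of 19 alternatives, the call held in 19 for Utf1, in 17 each for Sall4, Dppa4 and Dppa3 and in 12 for Lin28a. Quantile normalization lost all of these calls but that of Utf1, and median centring lost those of Sall4, Dppa4 and Lin28a. The alternatives include leaving out PGC libraries, which do not enter this difference directly. Utf1 started lower in pESCs (7.46 TPM) than in ESCs (24.6 TPM) and ended higher in pESC-PGCLCs (54.7 TPM) than in ESC-PGCLCs (21.3 TPM). Dppa3 started higher in pESCs (791 against 366 TPM). Its end levels (4743 against 5654 TPM) were not called different (-0.25, adjusted p = 0.386 by limma), with 0.06 under quantile normalization. The starting differences kept their calls in 5 of 19 alternatives for Utf1 and 7 for Dppa3, and the end difference of Utf1 in 14.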

How the results depend on the processing

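The main counts of the 9 genes called moved as follows. In pESCs against ESCs, 2 became 0 with no filter, with the compared groups alone, with quantile normalization and with the replicate block, 1 with median centring and 1 with TPM rescaled without Dppa3 and the Dppa5 genes. Each of these counts of 0 by limma left 2 genes at an unadjusted p under 0.05 and 2-fold, and voom called 2. Between the PGCLC kinds, 3 became 1 with quantile normalization and 1 with median centring, where 3053 and 3351 of all genes were called, against 3651. In PGCs against ESC-PGCLCs, 2 became 6 with no fold minimum and 0 with the compared groups alone and with quantile normalization (2 and 1 genes at an unadjusted p under 0.05 and 2-fold; voom called 2). With median centring it was 2 again, but Dppa3 and Dppa5a, both lower in PGCs, in place of Utf1 and Lin28a. In PGCs against pESC-PGCLCs, 1 became 3 with no fold minimum and 0 with no filter and with the compared groups alone (1 and 0 genes; voom called 1). For the difference between lines, 5 became 1 with quantile normalization and 2 with median centring, where 3871 and 5789 of all genes were called, against 5197. The other counts over all genes moved too. With the compared groups alone, 0 of 27259 genes were called in pESCs against ESCs and in PGCs against either PGCLC kind. In PGCs against ESC-PGCLCs, 3772 became 8471 with no fold minimum and 1906 with quantile normalization. In PGCs against pESC-PGCLCs, 1000 became 2438 with no fold minimum and 631 with no filter. In pESCs against ESCs, 213 became 134 with no filter and 122 with quantile normalization. The cause of these moves was not tested.

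Leaving out each library in turn gave 0 to 2 genes in pESCs against ESCs, 2 to 3 between the PGCLC kinds, 0 to 1 in PGCs against pESC-PGCLCs and 3 to 6 for the difference, with 3 to 4 in the ESC line, 6 to 7 in the pESC line, 2 to 3 in PGCs against ESC-PGCLCs, 4 to 5 against ESCs and 5 to 6 against pESCs. The difference fell to 3 without ESC replicate 1, and the single call in PGCs against pESC-PGCLCs was lost without either library of ESCs, ESC-PGCLCs or pESC-PGCLCs and without PGC replicate 1. A group left with 1 library is assumed to vary like the others. Calls over all genes fell too in each fit that lost the call in PGCs against pESC-PGCLCs. For the difference they fell as well without ESC replicate 1. In pESCs against ESCs they rose without pESC replicate 2 and fell when any other library was left out. Whether the lost calls are particular to the genes followed here was not tested.

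Replicate numbers recur across groups, yet of 10 pairs of same-numbered libraries 3 had deviations correlated above 0.1 (r from -0.0936 to 0.347), so the numbers were not taken to pair the samples. With the replicate block the count in pESCs against ESCs went from 2 to 0, over all genes from 213 to 78, and the counts of the other comparisons did not change.

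Changes that were not called could turn sign. In pESCs against ESCs, median centring gave Lin28b 0.19, Sall4 0.17 and Trim71 0.17, and quantile normalization gave Sall4 0.13 and Trim71 0.11. Between the PGCLC kinds, median centring gave Dppa5a -0.03 and Lin28b -0.37, quantile normalization Dppa3 0.06 and Lin28b -0.29, and voom Lin28b -0.06. In the ESC line, quantile normalization gave Sall4 0.07. In the pESC line, Dppa2 was at -0.59 with median centring, -0.23 with quantile normalization and -0.14 with voom. In PGCs against ESC-PGCLCs, Lin28b was at -0.1 and Trim71 at -0.1 with median centring, and at -0.1 and -0.09 with quantile normalization. In PGCs against pESC-PGCLCs, median centring gave Dppa2 -0.12 and Utf1 -0.09. In PGCs against ESCs, it gave Dppa4 -0.26 and Trim71 -0.49, with Trim71 at -0.56 by quantile normalization and -0.09 by voom. In PGCs against pESCs, it gave Dppa2 -0.7, Dppa4 -0.25, Sall4 -0.05 and Trim71 -0.66, quantile normalization gave Dppa2 -0.18 and Trim71 -0.67, and voom gave -0.09 and -0.03. For the difference between lines, median centring gave Dppa5a -0.66, Lin28b -0.56 and Trim71 -0.68, quantile normalization Lin28b -0.16 and Trim71 -0.54, and voom Dppa5a -0.14 and Trim71 -0.16. Leaving out libraries gave ranges across 0 for Dppa2 against ESCs in PGCs (-0.29 to 0.04), against pESC-PGCLCs in PGCs (-0.09 to 0.25) and in the pESC line (-0.02 to 0.3), for Utf1 in PGCs against pESC-PGCLCs (-0.31 to 0.52), for Lin28b in pESCs against ESCs (-0.31 to 0.01) and between the PGCLC kinds (-0.01 to 0.08), for Trim71 in PGCs against ESCs (-0.13 to 0.33) and in the difference (-0.01 to 0.13), and for Dppa5a in the difference (-0.1 to 0.26). Of 1539 values under alternatives, 1402 kept direction and call, 76 lost the call, 10 gained one and 51 changed sign. Depth limits Lin28a and Lin28b in pESCs, where 14 to 45 reads stand behind each value.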
